A study of Mus musculus with 57 samples.

Results

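The interleukins Il6, Il10 and Il12b and the cytokine receptor genes Il10ra, Il10rb, Il6ra, Il6st, Il4ra, Il13ra1 and Il21r were followed in RNA of CD11b-positive mouse brain cells, which the labels call microglia. The 10 genes were taken by symbol. All 10 were among the 50565 genes of the table on male and female animals and among the 53278 genes of the table on lipopolysaccharide (LPS, a bacterial cell wall component that activates Toll-like receptor signalling). After a filter on low counts, 10 of 10 were tested in the first table and 9 of 10 in the second, where Il10 was left out.

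The animals were wild-type (WT) mice and littermates deficient in P2RY12 (KO), a receptor for extracellular nucleotides that marks microglia. The sex experiment held adult animals with no treatment in the label, with 4 WT and 5 KO samples from males and as many from females. The LPS experiment held WT and KO samples labelled lps or ns, a term the labels do not explain. The protocol gives an intraperitoneal injection of 1 mg/kg LPS. It names neither the time after injection nor the sex of those animals, and whether ns animals received a vehicle is not stated. The deletion is described only as a deficiency, so how the allele was made, and in which cells, is not given in the sources used here. Nothing in the labels says that the samples of a group came from separate animals, so the p-values measure the spread between these samples.

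IL-6 binds its receptor chain (Il6ra) and then the common chain Il6st, which is shared with other cytokines of the family and signals through JAK kinases and STAT3. IL-10 signals through Il10ra, its ligand-specific chain, and the widely expressed Il10rb, and restrains inflammatory gene expression in macrophages and microglia. Il12b encodes the subunit shared by IL-12 and IL-23. Il4ra pairs with the common gamma chain or with Il13ra1 to receive IL-4 and IL-13, and Il21r pairs with the common gamma chain to receive IL-21.

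The 3 members called after LPS in KO were Il12b, Il4ra and Il6. The 250 bases before their annotated starts are shown for them from RefSeq (GRCm38.p6, plus strand), to set the sequence upstream of 2 genes that rose beside that of 1 that fell. Capitals mark matches, on either strand, to a kappaB motif, to an AP-1 motif (TGANTCA), to a C/EBP motif (TTNNGNAA) and to a STAT motif (TTCNNNGAA).
Il6, chr5:30012864-30013113: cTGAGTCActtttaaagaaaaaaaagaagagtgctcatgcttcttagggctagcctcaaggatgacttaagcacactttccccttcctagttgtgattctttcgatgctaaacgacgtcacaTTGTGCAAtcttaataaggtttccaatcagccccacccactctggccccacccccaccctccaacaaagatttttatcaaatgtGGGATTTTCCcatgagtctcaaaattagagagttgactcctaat
Il12b, chr11:44399813-44400062: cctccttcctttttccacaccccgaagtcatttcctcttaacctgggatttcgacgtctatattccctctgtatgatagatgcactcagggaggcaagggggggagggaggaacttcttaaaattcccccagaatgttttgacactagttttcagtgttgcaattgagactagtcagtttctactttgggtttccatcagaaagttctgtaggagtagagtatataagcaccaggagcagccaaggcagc
Il4ra, chr7:125552021-125552270: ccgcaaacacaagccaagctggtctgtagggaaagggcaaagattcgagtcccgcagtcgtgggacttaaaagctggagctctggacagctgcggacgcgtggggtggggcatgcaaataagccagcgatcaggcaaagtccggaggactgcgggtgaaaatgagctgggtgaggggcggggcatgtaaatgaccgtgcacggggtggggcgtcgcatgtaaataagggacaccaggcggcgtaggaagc
The Il6 stretch held the AP-1 letters at position -249 from the start, the C/EBP letters at -128 and the kappaB letters at -44, and these matches did not overlap each other. None of the 4 motifs matched in the stretches of Il12b and Il4ra. Of 32851 RefSeq promoters of the same length, 7.25% held the kappaB motif, 6.75% the AP-1 motif, 36.8% the C/EBP motif and 7.02% the STAT motif. A match describes letters and not a bound site, and the lack of a match does not mean that no site is present. RefSeq promoters matched 7 of the 10 members.

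The labels of the LPS experiment did not hold for every library. Within each of the library sets 1 and 2, the WT libraries of library number 2 went against their treatment label. P2ry12 stood at 481 and 927 CPM (counts per 1000000 counts of the library, with totals scaled between libraries) in the number 2 libraries labelled WT ns, against 3516 to 5406 CPM in the other 6. Saa3, an acute-phase gene that LPS induces, stood at 1781 and 2491 CPM there, against at most 64.3 CPM in the other 6. The number 2 libraries labelled WT LPS had 1.59 and 3.21 CPM of Saa3, against at least 1418 CPM in the others. These 4 libraries are shown apart and enter no main test, and the values with every library as labelled are given beside the WT results of the 9 tested members. Separately, 6 libraries of set 2 had 2.69% to 8.55% of their counts in mitochondrial genes, against 0.787% to 1.81% in the other 26. They are WT ns 5, WT LPS 6, WT LPS 7, KO ns 5, KO ns 6 and KO LPS 5, numbered within each group, of which WT ns 5 and WT LPS 6 are also of number 2. Leaving these libraries out, a choice made after seeing the data, therefore removed only WT LPS 7 from the WT samples of the main comparison. WT LPS 8 and WT LPS 9 differed by far less than other pairs of a group (chi-square over degrees of freedom 1.86, at least 8.32 elsewhere) and were counted as 1 sample. That left 6 WT ns, 6 WT LPS, 8 KO ns and 8 KO LPS samples. Each LPS library held 15.9 to 168.4 M counts and each library of the sex experiment 58.5 to 318.5 M counts, with M for 1000000. P2ry12 was lower in KO than in WT samples of the sex experiment, at 309 to 526 against 3007 to 5928 CPM. In the LPS experiment KO libraries ran from 585 to 1243 CPM under the ns label and from 84.2 to 154 CPM under the LPS label, and WT LPS libraries outside number 2 from 400.3 to 1063 CPM. The 10 microglial markers were above 0 in every library of the LPS experiment and summed to 16964 to 52663 CPM. In the sex experiment 9 of the 10 were in the table and summed to 25648 to 42600 CPM.

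Il12b rose after LPS in both genotypes (chr11:44290890-44305504; gene positions are on GRCm39, as in the deposited table). Its level in KO ns libraries ran from 0 to 0.379 CPM with a median of 0.136 CPM, and in KO LPS libraries from 0.983 to 13.7 CPM with a median of 2.62 CPM. In WT ns libraries it ran from 0 to 0.310 CPM with a median of 0.0800 CPM, and in WT LPS libraries from 2.09 to 98.0 CPM with a median of 4.24 CPM. The ns and LPS groups did not overlap in either genotype, although ns libraries held only 0 to 12 counts of the gene. The number 2 libraries were inverted, with 2.25 and 6.09 CPM where the label reads ns and 0 and 0.157 CPM where it reads LPS. The log2 fold change was 4.76 ± 0.75 (SE) in KO and 6.77 ± 0.91 in WT (edgeR quasi-likelihood test, Benjamini-Hochberg adjusted p = 1.80e-05 and 2.22e-06). Il12b passed the filter on low counts only through libraries where it was high, so these p-values are not independent of that filter. Here and below, the SE of a log2 fold change was back-calculated from the test statistic. WT LPS 7, a library with 6.74% mitochondrial counts, was the highest at 98.0 CPM, and the next WT LPS library had 12.2 CPM. The values were 4.90 ± 0.62 in KO and 5.40 ± 0.60 in WT when the libraries over 2% mitochondrial counts were left out. With every library as labelled the WT value was 3.21 ± 1.04, which did not pass (adjusted p = 0.120).

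Il6 fell after LPS in KO cells (chr5:30218112-30224973). Its level in KO ns libraries ran from 8.18 to 30.4 CPM with a median of 10.4 CPM, and in KO LPS libraries from 0.961 to 8.32 CPM with a median of 2.37 CPM. The overlap of these groups came from KO LPS 5, at 8.32 CPM, since the next KO LPS library had 3.16 CPM. The log2 fold change in KO was -2.31 ± 0.50 (edgeR, adjusted p = 0.000862). It was -2.38 ± 0.25 within library set 1 and -2.22 ± 0.82 within set 2, where it did not pass (adjusted p = 0.162). The highest KO ns libraries were KO ns 6, at 30.4 CPM, and KO ns 5, and these are also the KO ns libraries over 2% mitochondrial counts. The other KO ns libraries had at most 13.0 CPM. With those libraries left out the KO value was -2.31 ± 0.18 (adjusted p = 2.67e-10).

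In WT cells Il6 was not called over all samples, and 1 library stood far above its group. WT ns libraries ran from 5.55 to 8.71 CPM with a median of 6.73 CPM, and WT LPS libraries from 2.01 to 58.9 CPM with a median of 3.09 CPM. WT LPS 7 had 58.9 CPM, and the other 5 WT LPS libraries, at 2.01 to 4.10 CPM, all lay below the lowest WT ns library. The log2 fold change over all WT samples was 0.28 ± 0.57 (edgeR, adjusted p = 0.748). It was -1.21 ± 0.19 without the libraries over 2% mitochondrial counts (adjusted p = 1.34e-05), and within set 1 it was -1.34 ± 0.28 (adjusted p = 0.00153). Among WT samples the former choice, made after seeing the data, left out only the outlying WT LPS 7. In the number 2 libraries Il6 stood at 2.08 and 5.98 CPM where the label reads ns and at 7.50 and 22.9 CPM where it reads LPS. With every library as labelled the WT value was 0.65 ± 0.48 (adjusted p = 0.411).

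Il10 was near the limit of detection in the LPS experiment (chr1:130947459-130952707). KO ns libraries held 0 to 2 counts and KO LPS libraries 2 to 15 counts. WT ns libraries held 0 to 12 counts and WT LPS libraries 2 to 43 counts. On the CPM scale the medians were 0.0288 in KO ns, 0.192 in KO LPS, 0.0153 in WT ns and 0.573 in WT LPS. The groups overlapped in each genotype, through KO ns 6 at 0.152 CPM and through WT ns 8 at 0.413 CPM. In a fit with no filter on low counts the log2 fold change after LPS was 2.90 ± 0.70 in KO and 2.84 ± 0.66 in WT (edgeR, adjusted p = 0.00393 and 0.00297), values that depend on few counts.

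**Figure D1:**
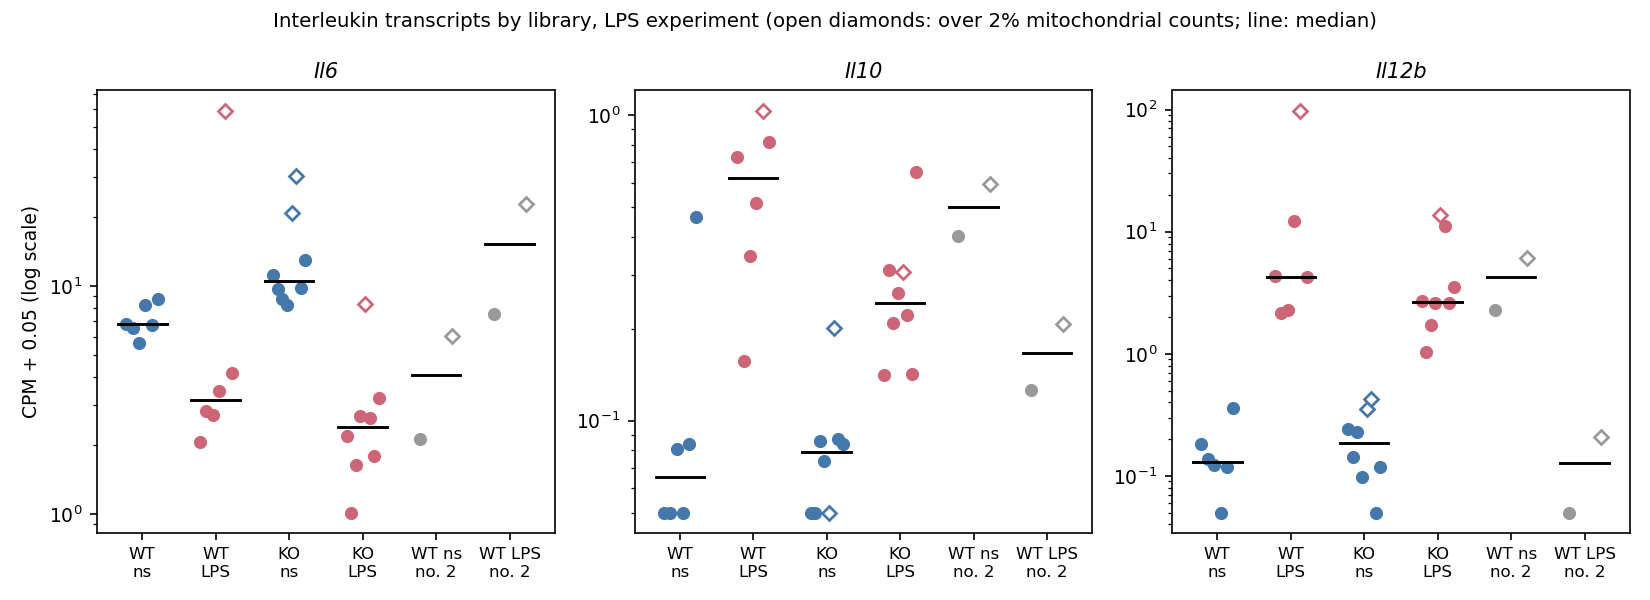
Level of Il6, Il10 and Il12b in every sample of the LPS experiment, as CPM + 0.05 on a log axis, by group. Black lines are medians, open diamonds are libraries over 2% mitochondrial counts and grey points are the WT libraries of number 2. Il12b is higher in every LPS library than in every ns library outside number 2, and WT LPS 7 stands far above its group for Il6 and Il12b.

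Il4ra was the receptor that rose after LPS, in both genotypes (chr7:125151443-125178646). Its level in KO ns libraries ran from 77.9 to 227 CPM with a median of 172 CPM, and in KO LPS libraries from 153 to 681 CPM with a median of 606 CPM. In WT ns libraries it ran from 176 to 214 CPM with a median of 183 CPM, and in WT LPS libraries from 352 to 693 CPM with a median of 519 CPM. The WT groups did not overlap. The KO groups overlapped only through KO LPS 5, at 153 CPM, since the other 7 KO LPS libraries started at 454 CPM. The log2 fold change was 1.80 ± 0.23 in KO and 1.51 ± 0.26 in WT (edgeR, adjusted p = 7.36e-07 and 6.86e-05). Within set 2 the WT value was 1.49 ± 0.51 and did not pass (adjusted p = 0.136). With every library as labelled it was 0.91 ± 0.32 in WT (adjusted p = 0.131). The number 2 libraries of set 1 were inverted, at 598 CPM under the ns label and 189 CPM under the LPS label. Those of set 2 stood at 189 CPM under ns and 103 CPM under LPS, and both are libraries over 2% mitochondrial counts.

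Of the IL-10 receptor chains, Il10ra fell after LPS in WT. It (chr9:45165135-45180447) ran from 611 to 884 CPM in WT ns libraries with a median of 840 CPM, and from 420 to 609 CPM in WT LPS libraries with a median of 541 CPM. The WT groups did not overlap, and the log2 fold change was -0.57 ± 0.19 (edgeR, adjusted p = 0.0197). That call was lost with no filter on low counts (adjusted p = 0.0629), within set 2 (adjusted p = 0.444) and with every library as labelled (adjusted p = 0.164). In KO the ns libraries ran from 486 to 907 CPM and the LPS libraries from 237 to 650 CPM, with a log2 fold change of -0.38 ± 0.16 that did not pass (adjusted p = 0.0792). Without the libraries over 2% mitochondrial counts the KO value was -0.38 ± 0.10 and passed (adjusted p = 0.00198). Il10rb (chr16:91203166-91222718) had group medians between 179 and 216 CPM, and its log2 fold change was 0.12 ± 0.11 in KO and 0.19 ± 0.12 in WT, neither past the threshold (edgeR, adjusted p = 0.454 and 0.233). The WT value of Il10rb was 0.09 ± 0.11 with every library as labelled (adjusted p = 0.671).

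The IL-6 receptor chains did not pass in either genotype over all samples. Il6ra (chr3:89776631-89820503) had a median of 645 CPM in KO ns and 456 CPM in KO LPS libraries, and of 553 CPM in WT ns and 455 CPM in WT LPS libraries. Its lowest value in a group was 98.0 CPM in KO ns, 36.7 CPM in KO LPS and 73.2 CPM in WT LPS, each in a library over 2% mitochondrial counts. The log2 fold change was -0.43 ± 0.41 in KO and -0.52 ± 0.47 in WT (edgeR, adjusted p = 0.490 and 0.433). Without those libraries it was -0.60 ± 0.15 in KO, past the threshold (adjusted p = 0.00138), and -0.28 ± 0.16 in WT, not past it (adjusted p = 0.144). The WT value was -0.38 ± 0.43 with every library as labelled (adjusted p = 0.611). Il6st (chr13:112600604-112643394) had medians of 482 and 375 CPM in KO ns and KO LPS, and of 475 and 368 CPM in WT ns and WT LPS. Its log2 fold change was -0.20 ± 0.22 in KO and -0.61 ± 0.25 in WT (edgeR, adjusted p = 0.539 and 0.0625). Both passed without the libraries over 2% mitochondrial counts, at -0.32 ± 0.12 in KO and -0.44 ± 0.14 in WT (adjusted p = 0.0323 and 0.00858). The WT value of Il6st was -0.62 ± 0.22 with every library as labelled (adjusted p = 0.133).

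Neither Il21r nor Il13ra1 was called over all samples. Il21r (chr7:125202424-125232742) had medians of 202 CPM in KO ns, 164 CPM in KO LPS, 194 CPM in WT ns and 120 CPM in WT LPS. Its log2 fold change was -0.29 ± 0.27 in KO and -0.70 ± 0.31 in WT (edgeR, adjusted p = 0.467 and 0.0847). It passed in both without the libraries over 2% mitochondrial counts, at -0.37 ± 0.15 and -0.55 ± 0.17 (adjusted p = 0.0465 and 0.00832), and the WT value was -0.49 ± 0.29 with every library as labelled (adjusted p = 0.304). Il13ra1 (chrX:35375761-35434915) had medians of 214 CPM in KO ns, 182 CPM in KO LPS, 162 CPM in WT ns and 150 CPM in WT LPS, with values up to 759 CPM in KO ns 6. Its log2 fold change was -0.42 ± 0.35 in KO and 0.22 ± 0.40 in WT (edgeR, adjusted p = 0.415 and 0.712). The WT value was -0.34 ± 0.19 without the libraries over 2% mitochondrial counts (adjusted p = 0.143) and 0.37 ± 0.34 with every library as labelled (adjusted p = 0.518).

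**Figure D2:**
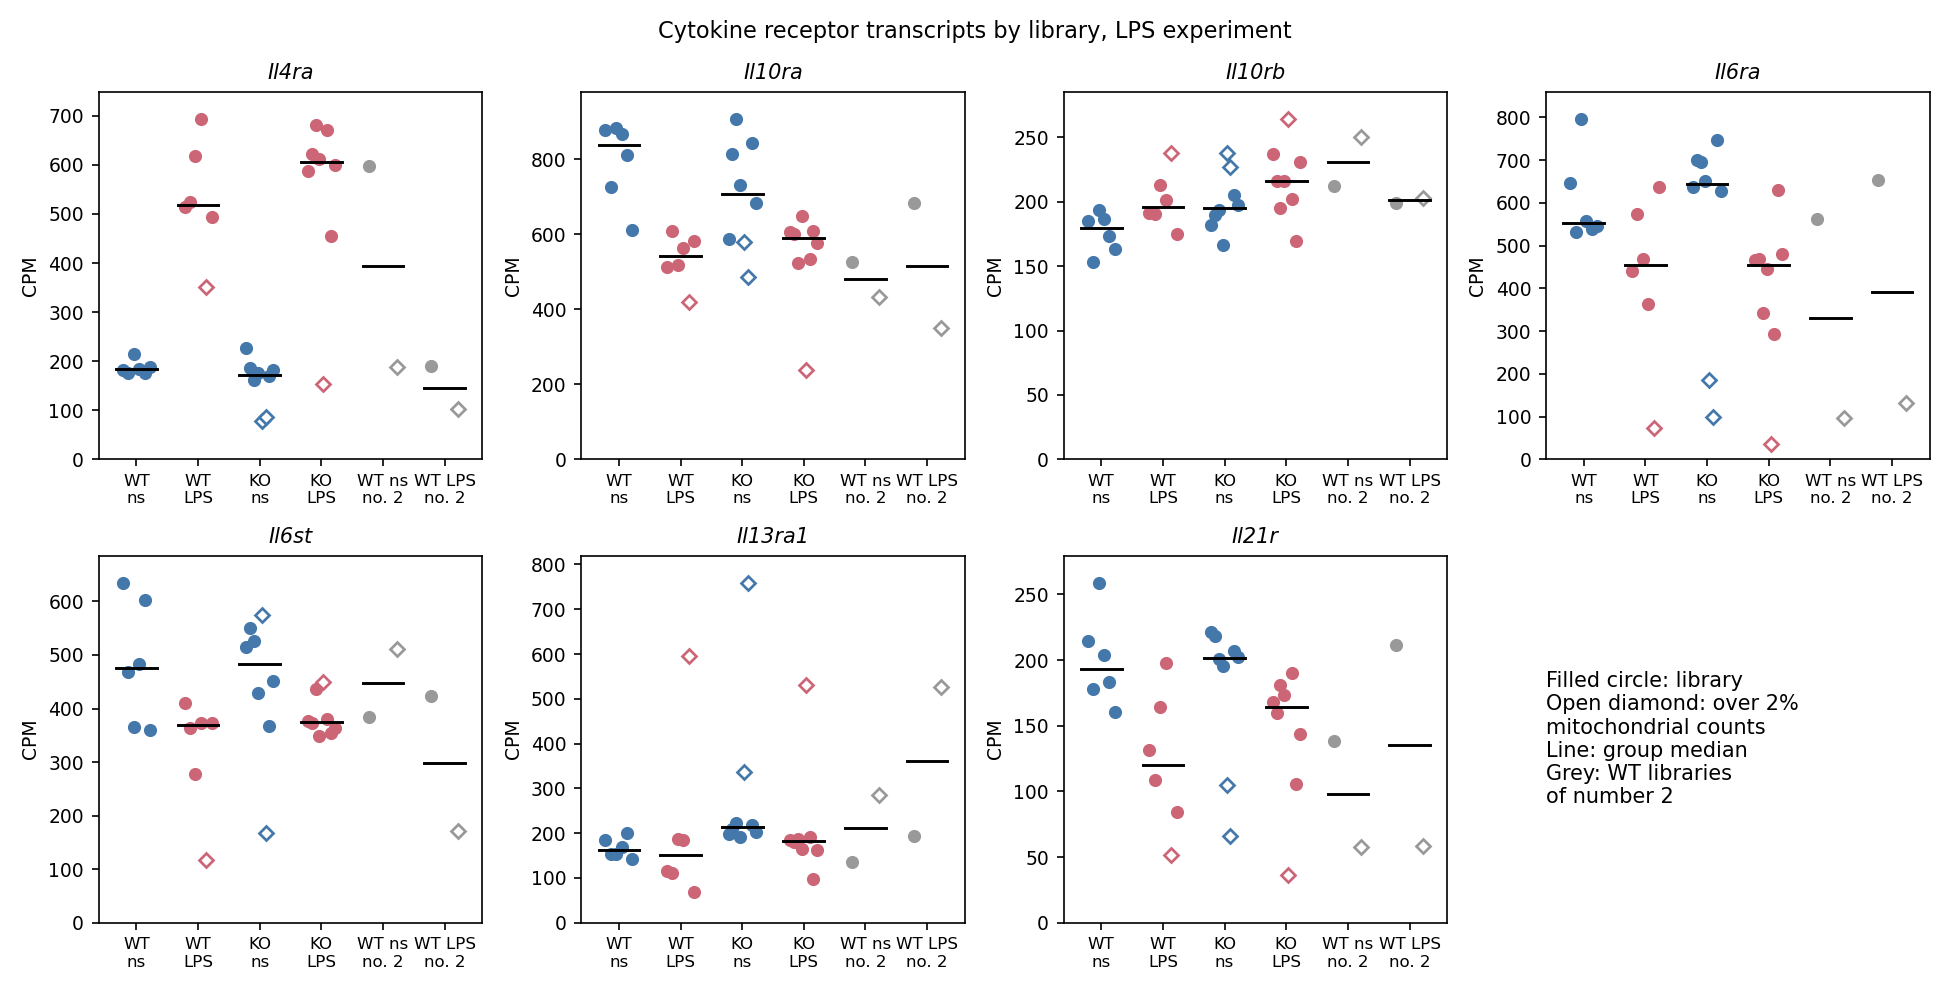
Level of the 7 receptor genes in every sample of the LPS experiment, in CPM from 0, by group. Symbols are as in the plot of the interleukins. Outside number 2, Il4ra is higher in LPS than in ns libraries apart from KO LPS 5 at 153 CPM, and the open diamonds lie low for Il6ra and Il21r and high for Il13ra1.

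In counts, 3 of 9 tested members passed after LPS in KO (2 higher, 1 lower), where 29% of all 15857 tested genes passed. In WT, 3 of 9 passed (2 higher, 1 lower), where 31% of all genes passed. Both counts are near the background for genes of this experiment. The members' median log2 fold change was -0.29 in KO and 0.19 in WT, against -0.02 and -0.01 over all genes tested. With every library as labelled, 3 of 9 passed in KO, where 22.3% of genes passed. In WT 0 of 9 passed by edgeR and 4 had an unadjusted p below 0.05, where 0% of genes passed and 3605 had an unadjusted p below 0.05. Without the libraries over 2% mitochondrial counts, 7 of 9 passed in KO (2 higher, 5 lower), where 55.2% of genes passed, and 6 of 9 passed in WT (2 higher, 4 lower), where 54.4% passed.

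**Figure D3:**
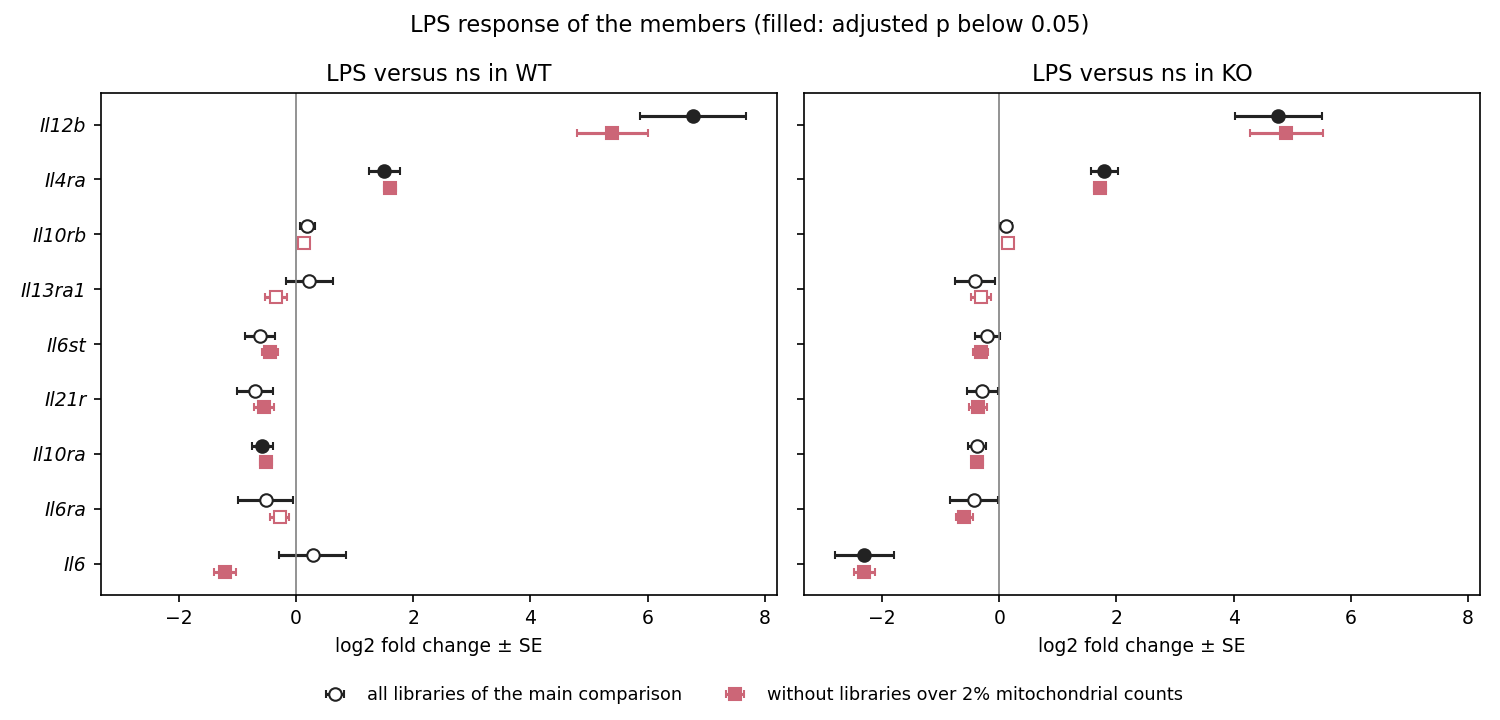
Log2 fold change after LPS with its SE for the 9 tested members, in WT (left) and KO (right). Black circles use all samples of the main comparison, red squares leave out the libraries over 2% mitochondrial counts, and filled symbols passed an adjusted p of 0.05. Il12b and Il4ra lie to the right of 0 under both choices, and Il6 in WT changes from 0.28 to -1.21.

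The libraries with a high mitochondrial share stood apart in several members whatever their treatment label. Il6ra ran from 36.7 to 186 CPM in those 6 libraries and from 293 to 796 CPM in the other 26. Il13ra1 ran from 285 to 759 CPM in the 6 and from 68.5 to 222 CPM in the other 26. Il21r ran from 36.7 to 105 CPM in the 6 and from 84.3 to 259 CPM in the other 26, so that these ranges overlapped. Il6 ran from 5.98 to 58.9 CPM in the 6, with a median of 21.9 CPM, and from 0.961 to 13.0 CPM in the other 26, with a median of 4.82 CPM. The part of the mitochondrial share in the LPS results was not tested beyond leaving these libraries out.

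**Figure D4:**
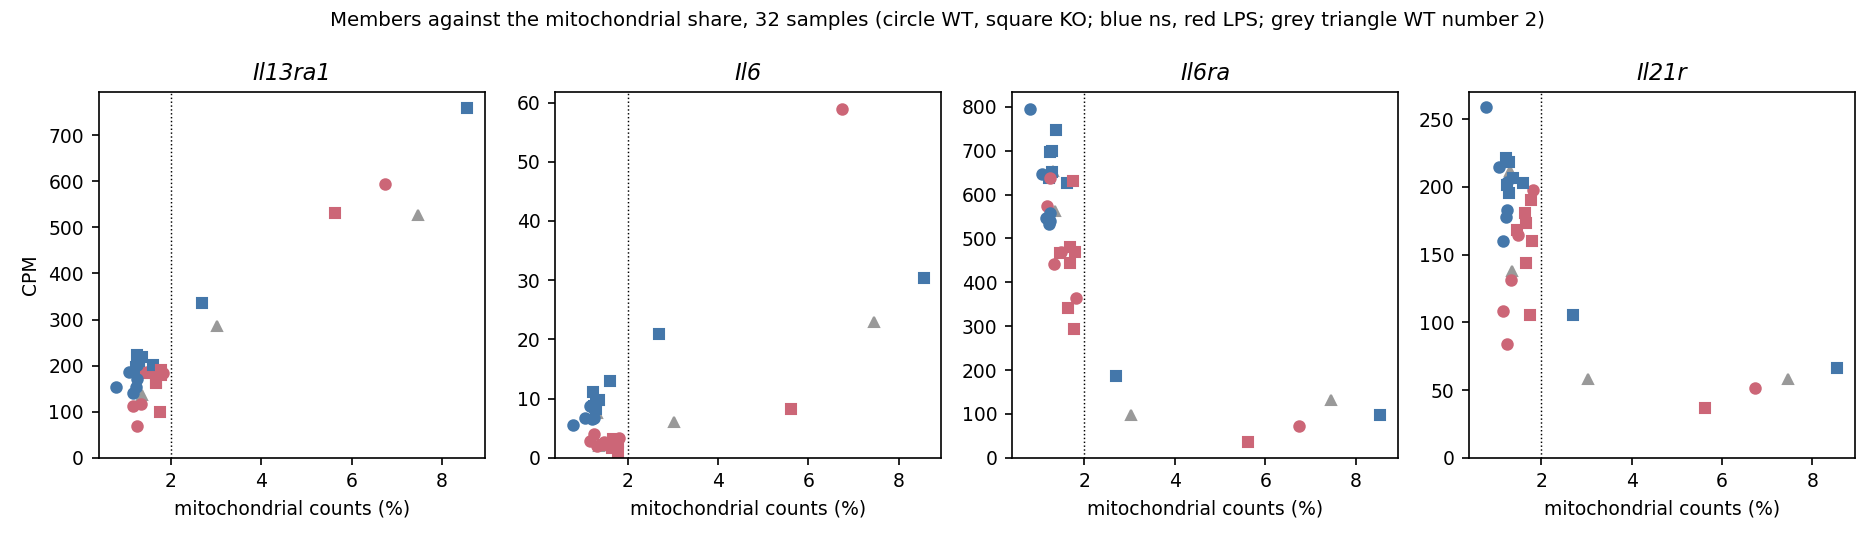
Level in CPM of Il13ra1, Il6, Il6ra and Il21r against the share of counts in mitochondrial genes, in percent, for the 32 samples of the LPS experiment. The dotted line marks 2%. Il13ra1 is at 285 CPM or more in all 6 libraries to its right, and Il6ra is at 186 CPM or less there.

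Markers of other cells varied between libraries, and those of some cell types differed between the groups. The 10 neutrophil markers, none at 0 in any library, summed to 370 to 17959 CPM in WT ns (median 2739) and 1883 to 13529 CPM in WT LPS (median 2846). In KO they summed to 323 to 10171 CPM in ns (median 981) and 1091 to 4468 CPM in LPS (median 2356). The 8 monocyte markers, none at 0, had medians of 489 CPM in WT ns, 714 CPM in WT LPS, 213 CPM in KO ns and 586 CPM in KO LPS. The 10 microglial markers had medians of 37772, 21178, 38028 and 24263 CPM in the same order, so that both LPS medians were the lower. That list includes P2ry12, the gene deficient in KO, which had medians of 4248, 507, 654 and 98.5 CPM in the same order. The sums of 6 dendritic cell markers did not overlap between ns and LPS libraries of either genotype, with medians of 47.0, 12.0, 42.6 and 15.3 CPM, and Xcr1 and Clec9a were at 0 in some libraries. Those of 4 endothelial markers did not overlap either, at 56.2, 17.7, 80.4 and 28.5 CPM, with Cldn5 at 0 in some libraries. In KO this separation was slight, with at most 66.8 CPM in LPS and at least 67.8 CPM in ns. Only 1 of the 4 endothelial markers reached 1 CPM in WT LPS 2, WT LPS 3, WT LPS 7 and the summed WT LPS 8 and 9. The 8 border macrophage markers, none at 0, had medians of 565, 250, 532 and 272 CPM, with overlapping ranges. The 8 T and NK cell markers, of which Cd3e, Cd3d, Cd3g and Cd8a were at 0 in some libraries, had medians of 33.3, 12.8, 21.8 and 6.17 CPM. The 4 oligodendrocyte markers had medians of 111, 78.9, 98.6 and 74.5 CPM, the 4 astrocyte markers 3.07, 4.25, 2.61 and 4.02 CPM and the 4 neuronal markers 3.31, 4.45, 7.35 and 7.38 CPM. Mog, Gfap and Slc17a7 of these last 3 lists were at 0 in some libraries. In these bulk samples fewer cells of a type and less RNA per cell cannot be told apart, and the part of other cells in the members' changes was not tested.

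The genotype comparisons gave no call among the members. At ns, 0 of 9 passed by edgeR, where 0.0883% of genes passed, and 0 had an unadjusted p below 0.05. At LPS, 0 of 9 passed, where 0.0694% of genes passed, and 2 had an unadjusted p below 0.05. For the difference between the LPS responses of KO and WT, 0 of 9 passed and 1 had an unadjusted p below 0.05, where 0% of genes passed and 783 had an unadjusted p below 0.05. DESeq2 also gave 0 in each of these 3 comparisons. Il6 at LPS was lower in KO by a log2 fold change of -1.75 ± 0.53 (edgeR, adjusted p = 0.455), and its response differed by -2.59 ± 0.76 (adjusted p = 0.735). Without the libraries over 2% mitochondrial counts these values were -0.51 ± 0.19 and -1.09 ± 0.26 (adjusted p = 0.273 and 0.533). At ns Il6 was higher in KO by 0.84 ± 0.52 (edgeR, adjusted p = 0.587), and by 0.58 ± 0.18 without those libraries (adjusted p = 0.178). Il12b at LPS was lower in KO by -1.68 ± 0.62 (edgeR, adjusted p = 0.598), and by -0.52 ± 0.44 without those libraries. Il4ra differed between genotypes by -0.26 ± 0.24 at ns and 0.02 ± 0.24 at LPS (adjusted p = 0.652 and 1.00).

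The sex experiment gave no call among the members either. In male KO against male WT, 0 of 10 passed by edgeR, where 0.00946% of the 31709 tested genes passed, and 1 had an unadjusted p below 0.05. In female KO against female WT, 0 of 10 passed, where 0.164% of genes passed, and 0 had an unadjusted p below 0.05. Averaged over the sexes, 0 of 10 passed, where 0.432% of genes passed, and 1 had an unadjusted p below 0.05. For the sex-by-genotype interaction and for female against male WT, 0 of 10 passed, where 0% and 0.0725% of genes passed, and 0 had an unadjusted p below 0.05 in either. DESeq2 also gave 0 in each of these 5 comparisons. The 10 neutrophil markers, none at 0, summed to 49598 CPM in male WT 5 and 29735 CPM in female WT 2, against 756 to 7963 CPM in the other 16 samples. Leaving out either of these WT samples, 0 members passed in any of these comparisons. For the receptors other than Il4ra, group means in CPM are given in the order female KO, female WT, male KO and male WT. Il10ra had 672, 644, 634 and 617, Il10rb 219, 208, 222 and 213, and Il6ra 388, 395, 392 and 389. Il6st had 395, 398, 477 and 486, Il13ra1 234, 225, 256 and 236, and Il21r 145, 144, 163 and 153.

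Il10 had the lowest p of the members in the male comparison and averaged over the sexes, without passing in either. Male WT samples had 0.143, 0.154, 0.218 and 0.312 CPM, and male KO samples 0.263, 0.276, 0.325, 0.363 and 3.96 CPM. Female WT samples had 0.104, 0.195, 0.320 and 0.653 CPM, and female KO samples 0.244, 0.419, 0.435, 0.615 and 1.06 CPM. Male KO 5 held 902 counts and stood far above the rest. Of the other 4 male KO samples, those at 0.263 and 0.276 CPM lay within the male WT range and those at 0.325 and 0.363 CPM above it. The log2 fold change was 2.32 ± 0.84 in males (edgeR, adjusted p = 0.719) and 1.57 ± 0.58 averaged over the sexes (adjusted p = 0.468). Without male KO 5 these fell to 0.56 ± 0.51 and 0.69 ± 0.35. The neutrophil and monocyte marker sums of male KO 5 were 2772 and 381 CPM, within the ranges of the other male KO samples.

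The other interleukins and Il4ra overlapped between all groups of the sex experiment. Il6 had 10.3 ± 1.41 CPM in female KO (SD, n = 5), 12.1 ± 2.48 CPM in female WT (n = 4), 11.7 ± 3.66 CPM in male KO (n = 5) and 11.8 ± 2.38 CPM in male WT (n = 4). Il12b had 0.299 ± 0.147, 0.475 ± 0.251, 0.349 ± 0.0722 and 0.265 ± 0.121 CPM in the same groups. Il4ra had 151 ± 20.4, 146 ± 21.2, 149 ± 14.4 and 157 ± 13.4 CPM. In that table the antisense gene A230098N10Rik, which overlaps Il6, had counts equal to 105% to 110% of those of Il6 in every library, and Gm42406, which overlaps Il13ra1, had 90.1% to 92.2% of its counts. Reads of these overlapping genes cannot be told apart there, so the levels of Il6 and Il13ra1 in the sex experiment are uncertain. In the LPS table A230098N10Rik had 0 to 3 counts per library.

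**Figure D5:**
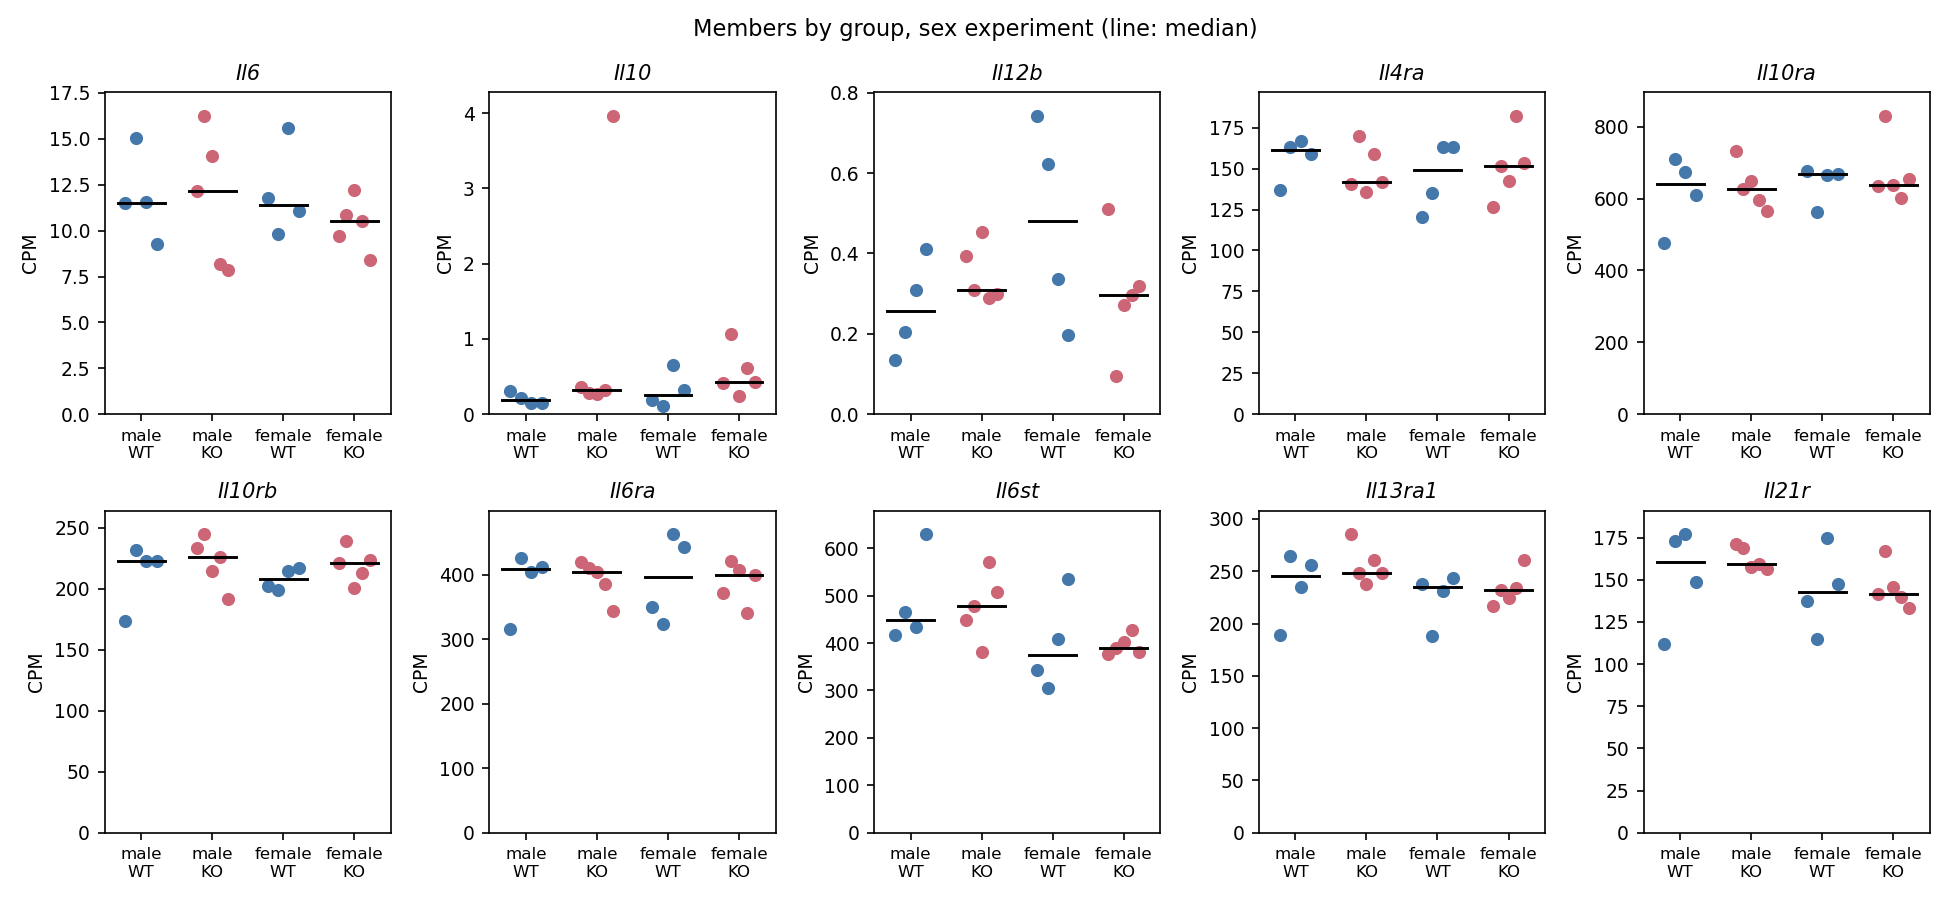
Level in CPM from 0 of the 10 members in each sample of the sex experiment, by sex and genotype, with medians as black lines. The groups overlap for the members drawn, and male KO 5 stands alone for Il10 at 3.96 CPM.

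Other genes of these pathways were listed beside the members. Of 43 tested after LPS, 13 rose and 8 fell in KO, and as many rose and fell in WT, where 29% and 31% of all tested genes passed. Among common gamma chain genes, 8 of 13 were tested and 2 rose and 3 fell in each genotype. Il2rg, the common gamma chain itself, rose by 2.70 ± 0.18 in KO and 2.27 ± 0.20 in WT on the log2 scale. Il15ra rose by 2.55 ± 0.25 and 3.06 ± 0.30, while Il7r fell, at -2.58 ± 0.27 and -2.60 ± 0.31. Of the IL-12 family 5 of 8 were tested, and the receptor chains went in opposite directions, with Il12rb1 at 2.00 ± 0.47 and 1.66 ± 0.51 and Il12rb2 at -1.86 ± 0.29 and -1.59 ± 0.34. In the IL-10 family 3 of 9 were tested and Il20rb rose, by 1.93 ± 0.33 in KO and 2.18 ± 0.38 in WT.

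Downstream of the receptors, 12 of 12 JAK, STAT and SOCS genes were tested, and 3 rose and 1 fell in each genotype. Socs3, a feedback inhibitor of IL-6 receptor signalling, rose by 3.44 ± 0.31 in KO and 3.13 ± 0.35 in WT. Stat4, which acts downstream of IL-12, fell, at -1.62 ± 0.37 in KO and -1.60 ± 0.42 in WT. Of 7 regulators of interleukin transcripts, 5 rose and 1 fell in KO, and 4 rose and 1 fell in WT. Bcl3 rose by 3.41 ± 0.47 and 2.60 ± 0.52, and Nfkbiz, a nuclear cofactor of NF-kappaB, rose by 1.91 ± 0.21 and 2.23 ± 0.25. In the IL-6 family 8 of 14 were tested, of which 1 rose and 2 fell in KO, and 2 rose and 2 fell in WT. Clcf1, an IL-6 family ligand, fell, at -1.85 ± 0.39 in KO and -2.36 ± 0.45 in WT, as did Il31ra, a receptor chain for IL-31, at -1.70 ± 0.57 and -1.66 ± 0.62. Adam10, a membrane protease, rose by 0.52 ± 0.16 and 0.51 ± 0.18, and Lifr, the receptor chain for LIF, rose in WT by 0.61 ± 0.16. With every library as labelled, no gene of the table was called in WT. In the sex experiment 1 of 59 pathway genes tested was called, Il12rb2, at 0.35 ± 0.07 higher in KO averaged over the sexes (edgeR, adjusted p = 0.0394), where 0.432% of all genes passed.

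Across the 32 samples of the LPS experiment, the genes whose log2 CPM was most like that of Il4ra were Ecm1 (Pearson r = 0.979), Tgm1 and AI506816. Those most like Il12b were Gnl3 (r = 0.956), Tsr1 and Cd69. Those most like Il6 were Rnf138 (r = 0.927), Lpar6 and Mir99ahg. Il21r was most like Csf3r (r = 0.975), Sall1 and Vav2, Il6ra most like Zer1 (r = 0.989), and Il13ra1 most like Cysltr1 (r = 0.977). These samples share treatment, library set and mitochondrial share, so the values describe the pattern only.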

How the data were processed

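Samples were grouped from the labels' genotype, treatment and titles. The deposited tables hold raw counts per gene, whole numbers that the authors made from poly(A) NovaSeq libraries. STAR 2.6.1, featureCounts, Subread and DESeq2 and build GRCm39 are named in the submitters' processing notes, with no role or order. Even numbers made up 79.0% to 89.2% of low counts in the sex table and 39.7% to 45.6% in the LPS table, so the tables were never fitted together. Of 57 libraries in the labels, 6 repeat libraries of the sex experiment had no column. Counts were fitted in R 4.3.3 with edgeR 4.0.16 (filterByExpr with a minimum count of 10, TMM scaling, robust quasi-likelihood test, Benjamini-Hochberg adjustment over all genes, called below 0.05). The LPS model had the library set as a covariate and used 28 of 32 samples. The sex model had a mean per group. CPM used TMM-scaled totals. The SE of a log2 fold change was its absolute value divided by the square root of the quasi-likelihood F statistic, so it is approximate. Code was tested on simulated data. The members and lists were chosen with earlier results of these data known. All 10 members were named, and pathway genes by the size of their change among those called, at most 4 per list and comparison. Alternatives were DESeq2 1.42.0, RLE scaling, filters, the replicate block and subsets of libraries. Leaving out libraries over 2% mitochondrial counts was chosen after seeing the data. 1 marker list is not reported here. Precision is limited by the number of samples, and low genes by their counts.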

Additional observations from a re-analysis of the deposited data

Results flagged for a closer look

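Of 78 member-by-group sets of 4 to 8 samples, 15 had a library lying far from the rest of its group by Dixon's criterion. Chance flags about 1 in 20 sets, but the sets are not independent, since the same libraries enter the sets of several members. No cause was tested for any of them.

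In the LPS experiment WT LPS 7 stood above its group for Il6 at 58.9 CPM, for Il12b at 98.0 CPM and for Il13ra1 at 595 CPM. KO LPS 5 stood above its group for Il6 at 8.32 CPM and for Il13ra1 at 531 CPM, and below it for Il10ra at 237 CPM and Il4ra at 153 CPM. KO ns 6 was high for Il13ra1 at 759 CPM. These 3 libraries held 6.74%, 5.62% and 8.55% mitochondrial counts. Their neutrophil marker sums were 13529, 4468 and 10171 CPM, the highest of their groups. KO LPS 8 was high for Il10 at 0.601 CPM, and WT ns 4, the library with the most counts, for Il4ra at 214 CPM. WT ns 8 was high for Il10 at 0.413 CPM. That library also had 64.3 CPM of Saa3 and 64.5 CPM of Marco, against at most 4.17 and 1.45 CPM in the other 5 WT ns samples outside number 2.

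In the sex experiment male KO 5 was high for Il10 at 3.96 CPM, against at most 0.363 CPM in the other male KO samples. Il10ra was high in female KO 2 at 830.2 CPM and low in female WT 2 at 563 CPM. Il10rb was low in male WT 5 at 173 CPM. Female WT 2 and male WT 5 had the highest neutrophil marker sums of the experiment, at 29735 and 49598 CPM.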

How the results depend on the processing

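After LPS in KO, where 3 members passed, DESeq2 called 5, library set 1 alone 6 and the samples without libraries over 2% mitochondrial counts 7. In WT, where 3 passed, the replicate block gave 5 (with Il6st at -0.75 and Il21r at -0.97, adjusted p = 0.0191 and 0.00998), all libraries as labelled 0, set 1 alone 7, set 2 alone 1 and the samples without libraries over 2% mitochondrial counts 6. Of the members' directions after LPS, those that reversed were Il10rb in KO within set 2 (-0.0013), Il13ra1 in WT with the replicate block (-0.11), within set 1 (-0.25) and without libraries over 2% mitochondrial counts (-0.34), and Il6 in WT under the same 3 choices (-0.16, -1.34 and -1.21). The cause was not tested. Uncalled genotype differences changed sign too, such as Il12b at ns (0.33, and -2.75 with all libraries as labelled). In the genotype, sex and interaction comparisons 0 members passed under every alternative run. Same-numbered samples did not deviate together throughout. In the sex experiment their mean r was 0.0994 (24 pairs, lowest -0.538), and 3 of 18 samples correlated best with their own number. In the LPS experiment it was 0.254 (35 pairs, lowest -0.313), against 0.0334 for other numbers (257 pairs), and 12 of 27 samples correlated best with their own number. Samples of a number were thus on average more alike in the LPS experiment. The main fit leaves the number out, and the replicate block is given as an alternative.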
